A study of Mus musculus with 4 samples.

Results

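Ankyrins, spectrins and proteins of the 4.1 family make up the skeleton beneath the cell membrane. The binding of PTBP1 to the RNA of 9 genes of this system was described from eCLIP of mouse heart. The genes were Ank2 and Ank3 (ankyrins), Sptbn1 and Sptan1 (spectrins), Epb41, Epb41l1, Epb41l2 and Epb41l3 (proteins 4.1), and Frmd4b, which shares the FERM domain of the 4.1 family. The genes were chosen by their log2 folds of immunoprecipitate over input in these same tables, so folds and counts are given as a description with no test. All clusters whose midpoint lay in the GRCm38 span of one of these genes, on the strand of that gene, were taken. They numbered 1397 of 376266 clusters in replicate 1 and 1485 of 388894 in replicate 2, in 9 of 14202 genes with clusters in both replicates.

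The study measured PTBP1 in whole heart of wild-type C57BL/6 mice, with no other genotype and no treatment. There were 2 immunoprecipitates (IP), and each was set against a size-matched input, a portion of its own lysate taken before the antibody was used. Each lysate came from about 66 mg of frozen tissue, ground and crosslinked with ultraviolet light at 254 nm (400 mJ per cm2), and RNA was recovered from the 50 to 125 kDa range of the membrane. Whether the lysates came from separate mice is not stated in the labels, and the difference between the replicates can be technical. Markers of several cell types were checked in the tables. Clusters in both replicates lay in 4 of 4 cardiomyocyte, 4 of 4 fibroblast, 3 of 3 endothelial and 3 of 3 erythroid markers, and in 2 of 3 Schwann cell and neuron markers (not in Sox10). Since whole hearts were lysed, fewer cells of a type and less RNA per cell cannot be told apart.

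PTBP1, the polypyrimidine tract binding protein 1, binds pyrimidine-rich stretches of RNA, many of them in introns, and is best known for repressing the inclusion of alternative exons. Ankyrins are adaptors that tie ion channels, exchangers and adhesion molecules to spectrin, a long tetramer of alpha and beta chains. Proteins 4.1 strengthen the contact of spectrin with actin and bind the tails of membrane proteins through their FERM domain. In heart muscle cells this skeleton holds ion channels and exchangers in place. Several of its genes are transcribed from alternative starts and spliced in tissue-specific forms.

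Each cluster carries a log2 fold of the immunoprecipitate over its own input and a −log10 p-value, both of them the authors' own values from the authors' deposited tables. A log2 fold of 3, the threshold used here, means 8 times as much signal in the immunoprecipitate as in the input after the authors' scaling. A cluster is called enriched where its log2 fold reached 3 and its −log10 p also reached 3. It is called reproducible where it shared 1 nt or more, strand included, with an enriched cluster of the other replicate. A fold over input is not a level of expression, and how many reads lie behind each cluster is not known.

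Binding was strongest at a few compact sites in Frmd4b, Epb41l2 and Ank2. Enriched clusters made up 140 of the 1397 clusters of the 9 genes in replicate 1, 10.0% (95% Wilson interval 8.55 to 11.7), where 6.31% of all clusters were enriched. In replicate 2 they were 112 of 1485, 7.54% (6.31 to 9.0), where the figure for all clusters was 4.71%. Reproducible clusters numbered 89 in replicate 1 and 90 in replicate 2, against 3.98% and 3.72% of all clusters. Because enrichment chose the genes, nothing is read from these differences. Of the 89 clusters, 65 lay in Ank2, Epb41l2 and Frmd4b. Reproducible clusters were found in 8 of the 9 genes, and Epb41l1 had none. Among all genes with clusters in both replicates 24.5% had at least 1, and among the 3541 genes at least as long as Sptan1, the shortest of the 9, 51.8% had at least 1.

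The 9 genes differed widely in their typical fold. The median log2 fold over all clusters of a gene was highest in Epb41l2, at 2.02 in replicate 1 and 1.74 in replicate 2. Sptan1 followed with 1.68 and 1.51, and Frmd4b with 1.5 and 1.49. The median of Sptbn1 was 1.18 and 0.87, and that of Ank2 0.92 and 0.84. Lower values were found for Epb41l1 (0.36 and 0.56), Epb41 (0.16 and 0.20) and Ank3 (0.04 and 0.03). Epb41l3 had a median of 0.20 in replicate 1 and −0.38 in replicate 2, and was the gene whose median changed sign between the replicates. With a mean weighted by cluster length in place of the median, its values were 1.12 and 0.70, those of Ank3 1.03 and 0.73, and those of Ank2 1.53 and 1.33. Over all 14202 genes the median of gene medians was 0.36 and 0.20. By their medians, Ank2 and both spectrins lay above the median gene in both replicates, and Ank3 lay below it. Among the 3541 genes at least as long as Sptan1, the median was 0.50 and 0.36 and the upper quartile 0.98 and 0.84. Ank2 did not exceed that quartile in either replicate. Because folds chose the genes, nothing is read from these positions.

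**Figure D1:**
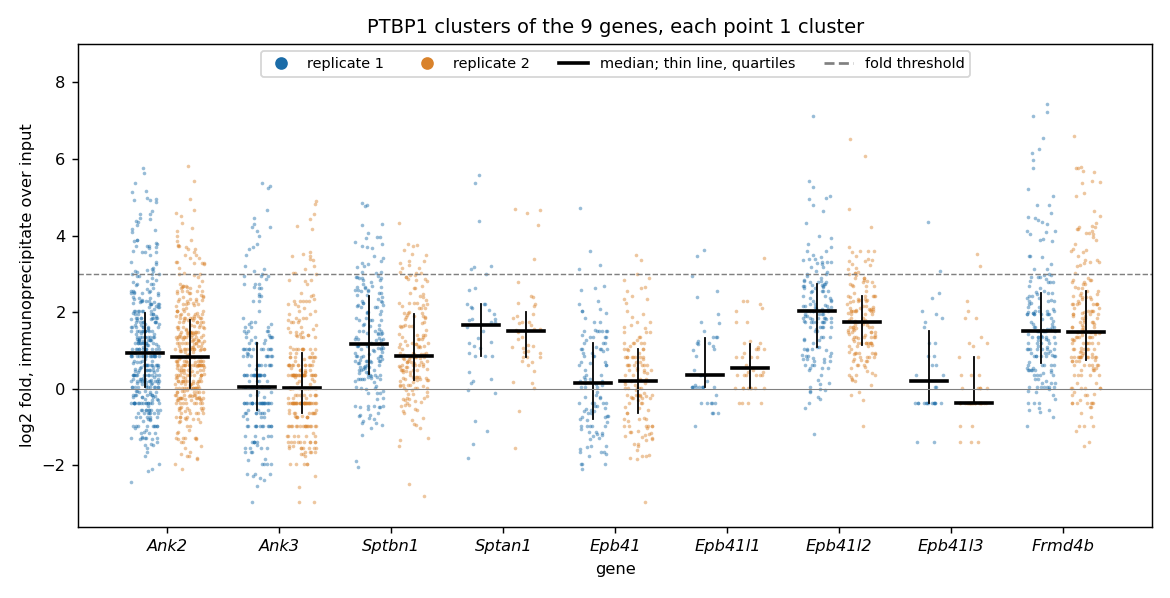
Log2 fold of immunoprecipitate over input (vertical axis) for every cluster of the 9 genes (horizontal axis), with replicate 1 in blue and replicate 2 in orange. Thick lines are medians, thin lines run from the lower to the upper quartile and the dashed line is the threshold of 3. The clouds of Epb41l2 and Frmd4b lie mostly above 0, with medians of 2.02 and 1.74 and of 1.5 and 1.49, and those of Ank3 and Epb41 are centred near 0.

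Ank2 encodes ankyrin-B, which anchors the sodium-calcium exchanger, the sodium pump and the IP3 receptor in heart muscle cells. It is the longest of the 9 genes (GRCm38 chr3:126921607-127500347, minus strand, 578.7 kb) and held 398 clusters in replicate 1 and 385 in replicate 2. Of these, 39 (9.80%) and 27 (7.01%) were enriched, and 25 of replicate 1 were reproducible. The strongest shared site, chr3:127261894-127262076, lay 238.4 kb from the 5′ end of the gene span. Its log2 fold was 5.76 in replicate 1 and 5.43 in replicate 2, with −log10 p of 57.0 and 44.5. The clusters of both replicates shared 183 nt there and had 1 boundary in common. The cluster just downstream of it on the transcript had log2 folds of 5.37 and 5.82, so the order of the replicates was reversed. With their neighbours these clusters formed a block of 804 nt with 4 reproducible clusters in each replicate.

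The reproducible clusters of Ank2 fell into 13 blocks, this one included, a block being reproducible clusters of either replicate joined across gaps of up to 1 kb. The blocks began 38.4 kb from the 5′ end and ended at 449.7 kb. A block at 195.5 kb reached log2 folds of 4.97 and 4.6. A block at 222.9 kb held 4 and 3 reproducible clusters and reached 4.92 in replicate 1 but 3.50 in replicate 2. A block at 96.0 kb, 4.85 kb past a start listed by RefSeq, reached 5.14 and 3.74. Ank2 also held clusters depleted relative to input in both replicates, the lowest with log2 folds of −2.16 and −1.70.

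Ank3 encodes ankyrin-G, which gathers voltage-gated sodium channels at the axon initial segment and at the intercalated disc of heart muscle cells. Its span (chr10:69533486-70027436, plus strand, 494.0 kb) held 229 and 285 clusters, and 37.6% and 41.8% of them had a log2 fold below 0. Enriched clusters numbered 15 (6.55%) and 12 (4.21%), shares near those of all clusters. The reproducible ones, 8 in replicate 1 and 11 in replicate 2, were confined to 4 blocks between 76.5 and 194.3 kb from the 5′ end. The strongest shared site, chr10:69723391-69723455, had log2 folds of 5.25 and 4.91 and −log10 p of 13.03 and 9.96. It belonged to a block of 583 nt with 5 reproducible clusters in each replicate, and that block held 5 of the 8 of replicate 1. A block at 76.5 kb had log2 folds of 4.13 and 4.18.

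The replicates did not give the same picture everywhere in Ank3. The highest fold of the gene in replicate 1 was 5.36, at chr10:69670136-69670284, and the cluster next to it had 5.30. The best overlapping cluster of replicate 2 reached 2.46 for both, below the threshold. In the other direction, a replicate 2 cluster at chr10:69656034-69656224 had a log2 fold of 4.57 and its best replicate 1 partner 2.74. Over 104 overlapping pairs of Ank3, the log2 fold of replicate 1 minus that of replicate 2 had a median of 0.35 and an SD of 1.24. This was the widest spread of the 9 genes, and 76.0% of the pairs had the same sign in both replicates.

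Sptbn1 encodes beta-II spectrin, the main beta chain outside red cells and a partner of ankyrin-B. Its span (chr11:30099395-30268384, minus strand, 169.0 kb) was the most densely covered, with 11.2 clusters per 10 kb in replicate 1 and 10.9 in replicate 2. Enriched clusters numbered 24 (12.6%) and 15 (8.15%), and 10 in each replicate were reproducible. At the strongest shared site, chr11:30134272-30134536, log2 folds were 4.81 and 4.33 and −log10 p was 45.9 and 24.99, with 85 nt in common. A larger group of 4 and 3 reproducible clusters spanned 408 nt around chr11:30200459-30200866, where the highest folds were 4.85 and 3.78. It lay 2.41 kb before a start listed by RefSeq. A single pair at chr11:30220923-30221125, with log2 folds of 3.70 and 3.16, lay 1.25 kb before another listed start. Folds in Sptbn1 were higher in replicate 1, by a median of 0.31 over 151 overlapping pairs (SD 0.74).

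Sptan1 encodes alpha-II spectrin, the alpha chain that pairs with beta-II spectrin. It is the shortest of the 9 genes (chr2:29965560-30031451, plus strand, 65.9 kb), with 42 clusters in replicate 1 and 44 in replicate 2. Enriched clusters numbered 5 (11.9%, Wilson interval 5.19 to 25) and 4 (9.09%, 3.59 to 21.2). All of the reproducible ones, 3 in each replicate, lay side by side in 1 block of 438 nt at chr2:29987255-29987692, 21.7 kb from the 5′ end. Along this block, in the order of the transcript, log2 folds were 5.38, 5.59 and 4.37 in replicate 1. In replicate 2 they were 4.70, 4.66 and 4.58. Sptan1 thus carried 1 strong site, and the other enriched clusters, 2 in replicate 1 and 1 in replicate 2, were enriched in that replicate alone.

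Epb41l2 encodes protein 4.1G, the widely expressed member of the family. Its span (chr10:25359782-25523519, plus strand, 163.7 kb) held 157 and 161 clusters, of which 25 (15.9%) and 18 (11.2%) were enriched. Clusters below a log2 fold of 0 were few, 5.73% and 2.48%, where 27.1% and 28.5% of all clusters lay below 0. The strongest shared site, chr10:25360971-25361186, lay 1.30 kb from the 5′ end of the span and 47.3 kb before the 1 start that RefSeq lists in the promoter table. Its log2 fold was 7.12 in replicate 1 and 6.52 in replicate 2, with −log10 p of 51.7 and 33.5. A further replicate 2 cluster in the same block had 6.08. No other site of the gene came near it, and the next shared pair, 159.4 kb from the 5′ end, had log2 folds of 4.99 and 4.22. Between them, blocks at 129.9 and 142.6 kb each held 5 reproducible clusters of replicate 1, with 5 and 2 of replicate 2. In these blocks the highest folds were 5.43 and 5.03 in replicate 1 and 3.59 and 3.60 in replicate 2.

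The other proteins 4.1 had few enriched clusters. Epb41 encodes protein 4.1R, first known from red cells, and its span (chr4:131923413-132075346, minus strand) held 118 and 136 clusters with 3 (2.54%) and 2 (1.47%) enriched. Its shared sites were chr4:131995131-131995248, with log2 folds of 4.72 and 3.49, and chr4:132039358-132039547, with 3.59 and 3.37. Epb41l3 encodes protein 4.1B and was the most sparsely covered gene (chr17:69075647-69289991, plus strand), with 1.59 and 2.05 clusters per 10 kb. Its only enriched cluster in each replicate was shared, chr17:69179092-69179371, with log2 folds of 4.34 and 3.53 and −log10 p of 6.35 and 3.16.

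Epb41l1 encodes protein 4.1N, the neuronal member, and its span (chr2:156417595-156543214, plus strand) held 46 and 42 clusters. There was 1 enriched cluster in replicate 1 and none among the 42 of replicate 2, which allows a share of up to 7.14% (counting error only). The pair with the highest folds lay at chr2:156517632-156517754, with log2 folds of 3.62 and 3.43. Its −log10 p was 3.55 in replicate 1 and 2.99 in replicate 2, just short of the threshold. This pair therefore missed by a p-value beside the threshold and not by its fold. All other overlapping pairs of Epb41l1 fell short on the fold in at least 1 replicate. The next by its lower fold had 2.94 and 2.28.

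**Figure D2:**
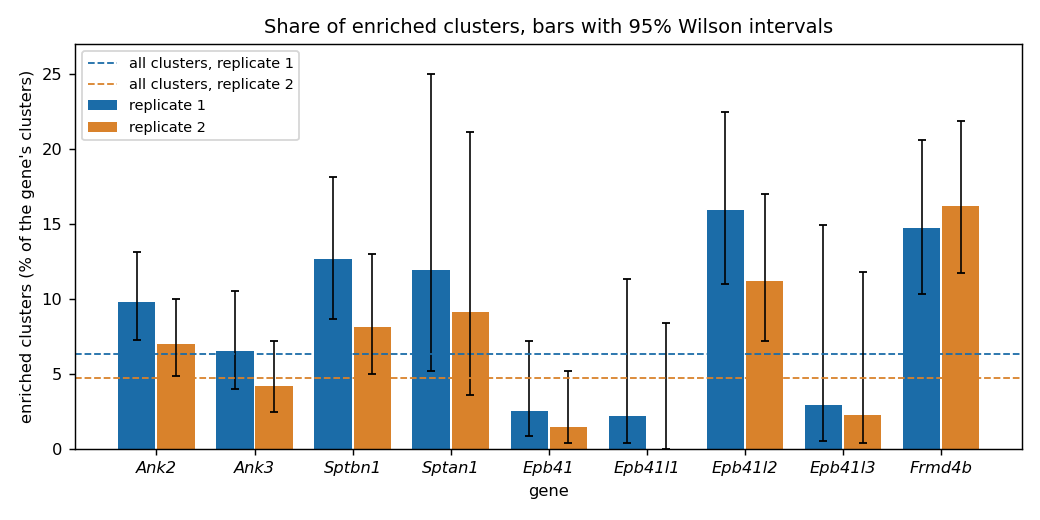
Share of the clusters of each gene that were enriched (vertical axis, percent) in replicate 1 (blue) and replicate 2 (orange), with 95% Wilson intervals for counting error only. Dashed lines mark the shares over all clusters, 6.31% and 4.71%. Epb41l2 (15.9% and 11.2%) and Frmd4b (14.8% and 16.2%) stand highest, and the intervals of the genes with few clusters are wide.

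Frmd4b encodes a FERM domain protein that binds cytohesins, activators of ARF GTPases, and scaffolds proteins at epithelial junctions. Its span (chr6:97286867-97617657, minus strand, 330.8 kb) held 183 and 204 clusters, and it was the 1 gene with more enriched clusters in replicate 2 (33, 16.2%) than in replicate 1 (27, 14.8%). Of these, 25 in replicate 1 and 28 in replicate 2 were reproducible. The strongest shared site of the 9 genes was chr6:97383901-97384035, 233.7 kb from the 5′ end. Its log2 fold was 7.24 in replicate 1 and 6.59 in replicate 2, with −log10 p of 55.9 and 35.2 and 63 nt in common. It sat in a block of 626 nt in which the 4 reproducible clusters of replicate 1 ranged from 6.26 to 7.43. The 5 of replicate 2 ranged from 5.66 to 6.59, so every reproducible cluster in the block was far above the threshold in both replicates.

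Frmd4b held further strong blocks. The largest by number held 9 reproducible clusters of replicate 1 and 12 of replicate 2 within 1485 nt at chr6:97453833-97455317, 4.71 kb past a listed start. It reached 5.97 and 5.42. Between 236.6 and 255.6 kb from the 5′ end lay 3 more blocks, which reached log2 folds of 6.15 and 5.76, 4.79 and 5.37, and 6.55 and 5.03, in the order of the transcript. The lowest shared pair of Frmd4b had log2 folds of −0.38 and −1.09, the value of replicate 1 being a low step of the grid of folds described below.

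**Figure D3:**
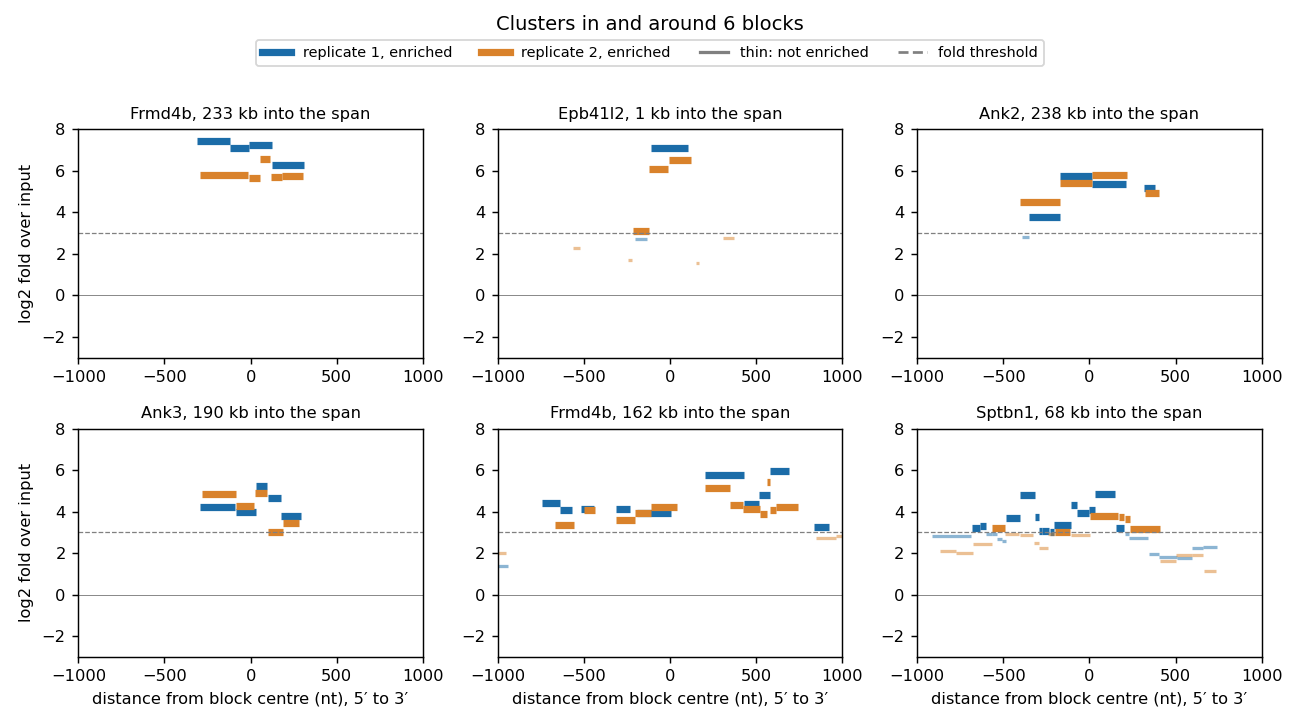
Clusters within 1 kb of the centre of 6 blocks, drawn as bars at their log2 fold over input (vertical axis) along the transcript from 5′ to 3′ (horizontal axis, nt from the block's centre). Thick bars are enriched, thin bars are not, blue is replicate 1, orange is replicate 2 and the dashed line is the threshold of 3. In the Frmd4b block 233 kb into the span every bar lies at 5.66 or above, while the Epb41l2 site stands alone among bars near 3 or below.

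Sites clustered in short stretches, and pooled over the genes the enriched share was lower at the gene ends than between them. Neither trait was compared with other genes, so neither is read as particular to these 9. Touching neighbours were common among all clusters, 27452 in replicate 1 and 28009 in replicate 2. The 89 reproducible clusters of replicate 1 merged into 52 regions when touching clusters were joined, and into 41 blocks. A single reproducible cluster of replicate 1 made up 22 of the blocks, and 4 blocks with 5 or more held 24 of the 89. Per 100 kb of span, Epb41l2 had 9.16 reproducible clusters of replicate 1, Frmd4b 7.56, Sptbn1 5.92, Sptan1 4.55 and Ank2 4.32. The density was 1.62 in Ank3, 1.32 in Epb41 and 0.467 in Epb41l3.

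In the first 10% of the spans 4.42% and 3.82% of clusters were enriched, and in the last 10% the shares were 6.06% and 1.52%. Between these ends, where 82.5% and 82.3% of all clusters of the 9 genes lay, they were 11% and 8.59%. The end shares rest on few enriched clusters, 5 and 5 in the first 10% and 8 and 2 in the last. Epb41l2 held 3 of the 5 enriched clusters of the first 10% in replicate 1 and 4 of the 5 in replicate 2. Its strongest site, 1.30 kb from the 5′ end, was among them. Within 5 kb of a start listed by RefSeq for 8 of the genes (Ank3 has no entry) lay 9.33% and 10.1% of all their clusters. Of the enriched clusters 18.4% and 15.0% lay there. Many of those in replicate 1 were adjoining clusters of 1 stretch of Sptbn1, chr11:30200459-30201347. Counted as blocks, 4 of 37 (10.8%) lay there, near the share of all clusters. Enriched clusters were longer than the others, with medians of 111 nt in both replicates against 65 and 64 nt. Over all clusters the medians were 130 and 131 nt for enriched ones and 67 and 64 nt for the rest. Exons, introns and the sequence under the enriched clusters were not analysed here.

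**Figure D4:**
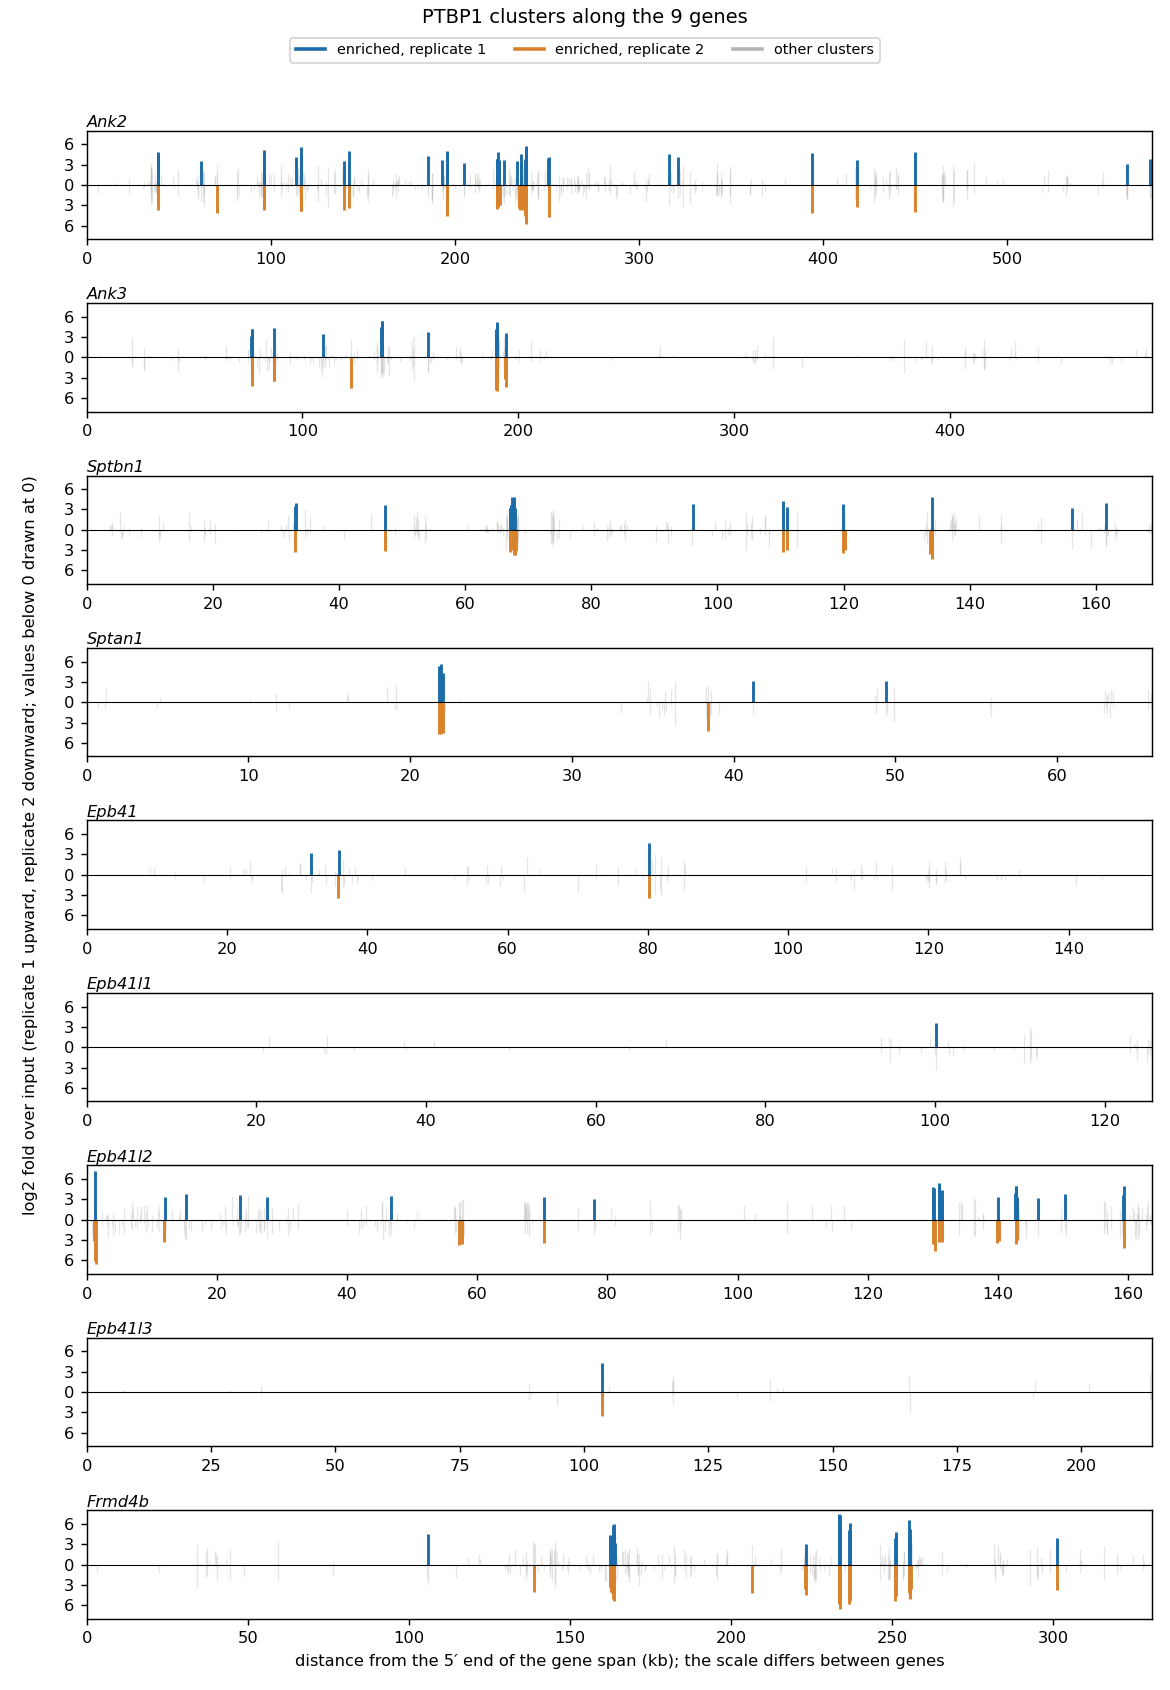
Clusters along the 9 genes, with distance from the 5′ end of the gene span on the horizontal axis (kb, a different scale for each gene) and the log2 fold over input on the vertical axis. Replicate 1 is drawn upward and replicate 2 downward, enriched clusters are blue and orange, other clusters are grey, and folds below 0 are drawn at 0. Enriched sites mirror each other in the 4 blocks of Ank3 between 76.5 and 194.3 kb and in the block of Sptan1 at 21.7 kb, and most of Epb41l1 and Epb41l3 is without any.

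The sequence of 1 stretch touched by clusters of both replicates was found in the RefSeq promoter table, and it is shown as an example of a covered but unenriched site. It lies wholly before the Frmd4b start that is 129.8 kb into the span (chr6:97487820), in the window from 250 bases before that start to 50 after it. The stretch is GRCm38.p6 chr6:97487904-97488070 on the minus strand and has 167 bases. The replicate 1 cluster there (chr6:97487956-97488152) had a log2 fold of −0.55 and a −log10 p of 0. The replicate 2 cluster (chr6:97487904-97487999) had 0.62 and 0.13. The bases are printed 5′ to 3′ on the strand of the transcript, all in lower case since no motif searched was found:
Frmd4b start: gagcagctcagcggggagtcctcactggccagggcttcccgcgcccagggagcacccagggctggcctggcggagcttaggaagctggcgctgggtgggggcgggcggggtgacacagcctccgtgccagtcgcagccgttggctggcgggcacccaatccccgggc
Pyrimidines made up 45.5% of these bases, and the median over the same stretch of all 32851 promoter windows was 49.7%. In those windows too the stretch lies before the start, and they were not chosen for holding clusters. Pyrimidine-rich motifs were searched on both strands of this stretch, and none of 4 occurred. The motif TCTT was found in 52.7% of the windows on the sense strand and in 54.2% on the other. For CTCTCT the shares were 8.04% and 9.10%. For TTTCT they were 26.2% and 28.4%, and for its longer form TTTTCT, which contains it, 9.58% and 10.5%.

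Pooled over the 9 genes, overlapping clusters formed 879 pairs. The log2 fold of replicate 1 minus that of replicate 2 had a median of 0.21 and an SD of 1.03 over these pairs, and the sign was the same in 773 (87.9%). Over all 210643 pairs of the tables the median was 0.13, the SD 1.01 and the share of equal signs 85.0%. The median difference ranged from 0.15 to 0.41 in Ank2, Ank3, Sptbn1, Epb41l2, Epb41l3 and Frmd4b and was near 0 in Epb41l1. It was −0.21 in Sptan1 (33 pairs, SD 0.88) and −0.15 in Epb41 (68 pairs, SD 1.17). In every gene the median difference was smaller than the SD over its pairs. For Sptan1 the medians over all its clusters went the other way (1.68 in replicate 1 and 1.51 in replicate 2). Whether the direction differs between genes was not tested. Across the 879 pairs Pearson's r was 0.78 and Spearman's rho 0.75, as a description, since pairs of 1 gene share their transcript and their lysate. In the 84 pairs enriched in both replicates, replicate 1 was higher by a median of 0.51 (SD 0.72). Over all 14168 such pairs of the tables it was higher by a median of 0.30 (SD 0.86).

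**Figure D5:**
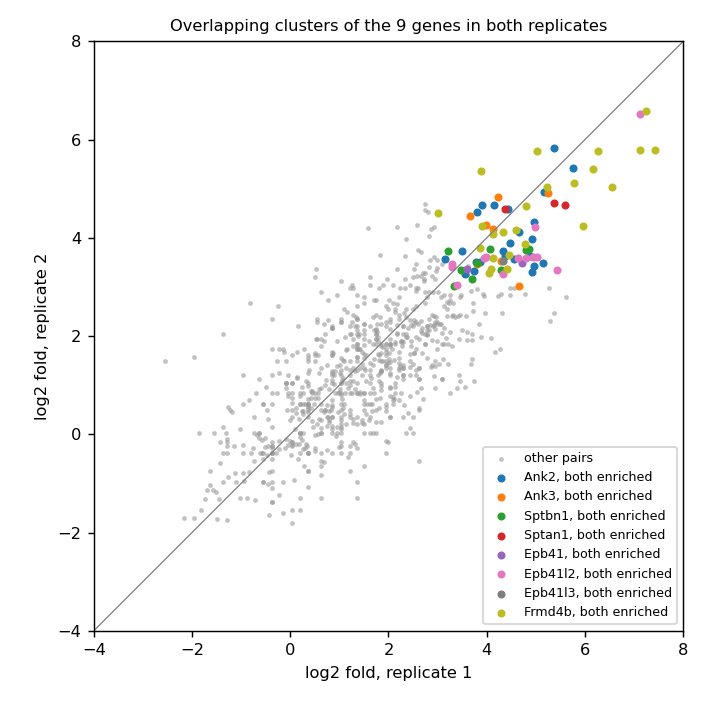
Log2 fold over input of the 879 overlapping clusters of the 9 genes, replicate 1 on the horizontal and replicate 2 on the vertical axis, with the line of equal values. Coloured points are pairs enriched in both replicates, by gene, and grey points are the others. More enriched pairs lie below the line than above it (median difference 0.51), and the pairs of Frmd4b and Epb41l2 reach furthest to the upper right.

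Few of the sites enriched in 1 replicate were without signal in the other. In replicate 1, 51 enriched clusters of the 9 genes had no enriched counterpart, and all 51 overlapped a replicate 2 cluster. The best partner of each had a log2 fold between 0.97 and 3.43, with a median of 2.51, and 38 reached 2. Of the 22 enriched in replicate 2 alone, 20 had a partner, with log2 folds from 1.27 to 2.99 and a median of 2.69. The 2 without a partner were chr11:30134674-30134717 in Sptbn1 and chr6:97361658-97361738 in Frmd4b.

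Many folds lay on a grid of whole steps, which limits what a median can show in thinly covered genes. Of all clusters 67.2% in replicate 1 and 64.4% in replicate 2 had a fold that was a whole multiple of 1 base ratio, to within 0.01 on the log2 scale. In Epb41l3 the shares were 94.1% and 90.9%, in Frmd4b 63.4% and 68.1% and in Sptbn1 21.6% and 17.9%. Steps lie closer together at higher folds, where a fixed tolerance is met more easily, so genes of unlike folds cannot be compared by these shares. Steps 3 to 5 of the grid, low but not the lowest, held 50.0% and 61.4% of the Epb41l3 clusters. They held 31.4% and 30.2% of those of Ank3, but 1.91% and 1.86% of those of Epb41l2. The medians near 0 of Epb41l3 and Ank3 thus lay within steps 3 to 5, and the median of Epb41l2 well above them. These steps were not a floor, since folds of Ank3 went down to −2.96 in replicate 1 and −2.97 in replicate 2.

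Other genes lie within the spans of the 9, and their reads could be counted there. The gene table placed 24 other genes in these spans, and 82 clusters of replicate 1 and 84 of replicate 2 fell in them. Of these, 7 and 3 were enriched, and none of the enriched ones lay in a gene known to be on the same strand.

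Of 40 further genes of this system, 15 held a reproducible cluster, 39.5% of the 38 with clusters in both replicates. Over all genes the share was 24.5%. The spans of the 40 ran from 3.83 kb (Kcnj11) to 2390 kb (Dmd). The 51.8% of genes at least as long as Sptan1 is therefore not a like comparison, and no length-matched share was computed. The list holds erythroid skeleton proteins, adducins, ezrin, radixin, moesin and other FERM proteins, and channels and exchangers that bind ankyrin. The strongest shared sites were in Dmd, which encodes dystrophin (log2 folds of 6.39 and 5.57), and in Rdx, which encodes radixin, a FERM protein that links actin to the membrane (5.77 and 5.22). Next came the FERM gene Frmd6 (5.33 and 5.20) and Abcc9, the regulatory subunit of a potassium channel (5.01 and 5.67, with 3 nt shared). Frmd4a, the closest relative of Frmd4b, had 4.98 and 4.85. Slc8a1, the sodium-calcium exchanger (4.80 and 4.82), Msn, moesin (4.50 and 4.63), and Itpr1, an IP3 receptor (4.48 and 4.57), followed. The peak sites of Frmd4b and Epb41l2 had higher folds than any of these in both replicates. Nothing is read from this order, because Frmd4b and Epb41l2 were chosen by their folds in these same data.

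The red cell genes Ank1, Sptb, Epb42 and Slc4a1 had no reproducible cluster. The median log2 fold of Ank1, the erythroid ankyrin, was −2.25 over 18 clusters of replicate 1 and −2.01 over 20 of replicate 2. The 3 erythroid markers had no reproducible cluster either, and their medians centred on −0.96 and −1.07. In Add2 and Sptbn5 there were no clusters in either replicate.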

How the data were processed

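Per the labels, seCLIP was run on 2 immunoprecipitates and 2 inputs. STAR 2.6.0c, cutadapt 2.7 and UMI-tools 0.5.1, and the builds mm10 and hg38, are listed in the submitters' processing notes without roles. For the cluster caller, its annotation and the test behind the p-values, the tool is not given in the sources used here. Each replicate has its own cluster table. Per the file headers, clusters carry a log2 fold and, as −log10, a p-value. The −log10 p deposited by the authors stops at 400 and is 0 wherever the log2 fold is below 0. Coordinates were read as mm10 (GRCm38) and printed counting from 1.

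With Python 3.11.15, numpy 2.4.6 and pandas 2.3.3, clusters were placed by midpoint in RefSeq gene spans. Strand came from the RefSeq promoter table for 8 genes and from the clusters for Ank3, all of which lay on the plus strand. No cluster lay on the opposite strand of any of the 9 genes. The placing, overlap and counting steps were tested on simulated data. Wilson intervals cover counting error only, and the depth is unknown. The strongest shared site of a gene is the enriched, overlapping pair whose lower fold is highest. Named sites are this site, up to 3 further regions in genes with 10 or more reproducible clusters, and up to 8 related genes by the same fold. Other sites named were chosen after their values were seen. The genes, lists and thresholds were chosen with earlier results of these data known. Alternatives were other thresholds, overlaps, pairings and cluster lengths.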

Additional observations from a re-analysis of the deposited data

How the results depend on the processing

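The counts depend on the fold threshold. At a log2 fold of at least 1, enriched clusters numbered 216 in replicate 1 and 187 in replicate 2 and reproducible ones 176. At a log2 fold of at least 4 they were 72, 47 and 32. The number of genes with a reproducible cluster was 8 and 6 under these thresholds. Enrichment in 1 replicate alone gave between 112 and 140 clusters, in 8 to 9 genes, and joining touching clusters gave 52 regions. A −log10 p of at least 5 gave 118, 97 and 79 clusters in 7 genes. Placing clusters whole within the span changed no count, and overlaps of at least 10 nt or 50% of the shorter cluster gave 87 and 86 in 8 genes. A mean weighted by cluster length was above the median in all 18 gene values, by up to 1.08, with 1 change of sign, that of Epb41l3 in replicate 2 from −0.38 to 0.70. Leaving out clusters under 30 nt moved medians by up to 0.32. Pairing by most shared nucleotides lowered the best Sptbn1 value from 4.33 to 3.78 and left the other 8 within the spread of the replicates. No paired analysis was possible because the deposited folds already combine each immunoprecipitate with its input and no values of single samples were used. The planned pyrimidine share and motif search under the clusters, with its alternatives, was not run, since it needs the genome sequence.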
